A study of Mus musculus with 4 samples.

Results

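Tbx15, Shox2, Irx1, Irx2, Irx3 and Irx5 code for transcription factors of developmental patterning and are 6 of the 32285 genes counted in each of 4 mouse libraries, found there by symbol. They were selected on their measured UMI levels, which earlier results of these libraries gave as higher in cells of the inguinal depot, so every inguinal to epididymal ratio below is a description of how they were chosen and carries no test. The choice was not made on the comparison of cells of adipocyte and of stromal origin or on the joint detection of the genes in single cells. The iWAT levels did enter it, so levels and shares of cells in iWAT, and ratios between the iWAT libraries, are not free of it. The cells in which they were read are the barcodes with 5000 to 75000 unique molecular identifiers (UMIs, a tag that lets copies of 1 RNA be counted once), 200 to 7500 genes and under 10% mitochondrial UMIs.

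The study compared cells of inguinal white adipose tissue (iWAT, a subcutaneous depot) and epididymal white adipose tissue (eWAT, a visceral depot) of chow-fed C57BL/6J male mice. In the libraries iWAT_DFAT and eWAT_DFAT are de-differentiated fat (DFAT) cells, the fibroblast-like cells that mature adipocytes give rise to when they are kept floating against the ceiling of a flask. The iWAT_ASPC and eWAT_ASPC libraries, labelled as cultured SVF cells, hold the stromal vascular fraction after primary culture, whose main cells are adipose stem and progenitor cells (ASPCs). Each group is 1 library of cultured, viable-sorted cells run with the 10x Genomics 3′ chemistry, with no genetic change or drug named in the labels, and the age of the mice and the number pooled per culture are not given in the sources used here. With 1 library per group no test across samples was made, and the 95% intervals given cover counting error only, not the spread between cultures.

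The families these genes belong to act early in development, when they give cells a position in the embryo that their descendants can retain. Tbx15 is a T-box factor of limb, trunk skin and skeletal development that is widely used to mark subcutaneous fat precursors. Shox2 is a homeobox factor of the proximal limb and of the sinoatrial node. Irx1, Irx2, Irx3 and Irx5 are Iroquois homeobox factors, which in mammals lie in a cluster of Irx1, Irx2 and Irx4 and a cluster of Irx3, Irx5 and Irx6, and Irx3 and Irx5 are known from the adiposity locus at the human FTO gene.

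The libraries held 7629 (iWAT_DFAT), 6464 (eWAT_DFAT), 7424 (iWAT_ASPC) and 6745 (eWAT_ASPC) such cells, or 28262 in all, with a median of 22111 to 27617 UMIs per cell and 183664704 to 199357348 UMIs per library. A gene without a single UMI could still have had up to 0.0150 to 0.0163 UMIs per 1000000 (3 counts). Between 0.579% and 0.756% of the cells of a library had a barcode that also occurred as a cell in another library. At least 6 of 11 stromal markers were detected in 98.2% (iWAT_DFAT), 76.1% (eWAT_DFAT), 92.9% (iWAT_ASPC) and 89.6% (eWAT_ASPC) of the cells. The file headers name Cell Ranger 7.1.0 for 3 libraries and version 4 for the iWAT_ASPC library, so counting software cannot be told apart from group in any comparison with that library. Its part in the results was not tested. From the shortest to the longest of 4 equal groups of genes, the median log2 ratio ran from -0.01 to 0.12 for iWAT_ASPC over eWAT_ASPC and from -0.06 to 0.26 for iWAT_DFAT over iWAT_ASPC. For iWAT_ASPC over eWAT_DFAT, which also differ in header version, it ran from 0.001 to -0.012. Between libraries with the same header version it ran from -0.04 to 0.23 for iWAT_DFAT over eWAT_DFAT. It ran from -0.04 to 0.39 for iWAT_DFAT over eWAT_ASPC and from -0.01 to 0.14 for eWAT_DFAT over eWAT_ASPC.

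The genes lie on 3 chromosomes of mm10. Tbx15 occupies chr3:99240381-99354259 on the plus strand and Shox2 chr3:66971727-66981771 on the minus strand. Irx1 (chr13:71957921-71963723, minus strand) and Irx2 (chr13:72628820-72634198, plus strand) belong to one Iroquois cluster, and Irx3 (chr8:91798525-91802067, minus strand) and Irx5 (chr8:92357625-92376286, plus strand) to the other. The promoters of Shox2, Irx2 and Irx3 are printed, the 3 members with an entry in the table used, because each has a neighbour with a nearby start whose depot ratio is given further on. The sequences are those of RefSeq on GRCm38.p6, 250 bases before to 50 bases after the RefSeq gene start, 5′ to 3′ on the strand of the gene, with CG pairs and the word TATAAA in capitals. Shox2 lies at chr3:66981722-66982021, Irx2 at chr13:72628570-72628869 and Irx3 at chr8:91801605-91801904. The RefSeq start of Irx3 differs from the GENCODE one, so its window lies inside the gene interval given above.
Shox2: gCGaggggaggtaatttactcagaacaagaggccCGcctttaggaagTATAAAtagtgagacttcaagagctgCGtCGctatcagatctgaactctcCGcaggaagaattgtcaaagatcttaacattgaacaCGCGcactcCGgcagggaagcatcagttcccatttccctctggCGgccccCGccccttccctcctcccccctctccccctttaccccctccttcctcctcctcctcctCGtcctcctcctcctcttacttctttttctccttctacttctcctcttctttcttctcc
Irx2: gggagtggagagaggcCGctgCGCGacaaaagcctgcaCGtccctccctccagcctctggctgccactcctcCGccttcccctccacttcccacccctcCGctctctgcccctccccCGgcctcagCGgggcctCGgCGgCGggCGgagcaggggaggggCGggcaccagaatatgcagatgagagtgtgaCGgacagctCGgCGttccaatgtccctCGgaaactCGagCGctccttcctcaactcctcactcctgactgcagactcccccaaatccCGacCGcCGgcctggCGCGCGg
Irx3: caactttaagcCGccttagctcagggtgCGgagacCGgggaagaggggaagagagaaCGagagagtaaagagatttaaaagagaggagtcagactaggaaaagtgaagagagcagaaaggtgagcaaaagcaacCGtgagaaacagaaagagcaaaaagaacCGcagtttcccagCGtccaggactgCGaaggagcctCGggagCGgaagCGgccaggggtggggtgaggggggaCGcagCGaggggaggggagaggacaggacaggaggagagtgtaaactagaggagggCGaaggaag

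All 3 promoters held more CG pairs than the median of 7 over the 32851 promoters of the table. Irx2 had 25 CG pairs at 69.0% GC, Irx3 had 14 at 56.0% GC, and Shox2 had 11 at 53.3% GC, against a median GC content of 52.7%. The searches covered both strands. The TATA box word TATAAA occurred in 1 of the 3 promoters, Shox2, from 203 to 198 bases before the start, and in 13.6% of all promoters. The Iroquois word ACANNTGT occurred in 0 of the 3 and in 7.38% of all promoters. The T-box word AGGTGT occurred in 0 of the 3 and in 13.7% of all, and the homeobox word TAATTA in 0 of the 3 and in 5.29% of all.

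All 6 genes were present in both iWAT libraries and at under 1 CPM in both eWAT libraries. Levels are UMIs per 1000000 UMIs of the cells of a library (CPM) and are compared between libraries for 1 gene at a time. Tbx15 stood at 91.3 CPM (95% interval 89.9 to 92.7) in iWAT_DFAT, 103 (101 to 104) in iWAT_ASPC, 0.372 (0.289 to 0.470) in eWAT_DFAT and 0.532 (0.435 to 0.643) in eWAT_ASPC. Shox2 stood at 69.0 CPM (67.8 to 70.3) in iWAT_DFAT, 52.5 (51.5 to 53.5) in iWAT_ASPC, 0.523 (0.424 to 0.638) in eWAT_DFAT and 0.334 (0.258 to 0.425) in eWAT_ASPC. Neither gene had overlapping intervals between the depots, the contrast on which both were chosen. The share of all genes with intervals apart is not given here. In iWAT Tbx15 was higher in the ASPC library and Shox2 in the DFAT library. In eWAT the level intervals of the DFAT and ASPC libraries overlapped for both genes, but the ratios had the same directions as in iWAT. The eWAT log2 ratio of DFAT cells over ASPCs was -0.52 (-0.98 to -0.06) for Tbx15 and 0.65 (0.18 to 1.12) for Shox2.

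The Iroquois genes had the same split by depot. Irx1 stood at 33.0 CPM (32.2 to 33.9) in iWAT_DFAT, 29.0 (28.3 to 29.8) in iWAT_ASPC, 0.102 (0.0616 to 0.160) in eWAT_DFAT and 0.906 (0.778 to 1.05) in eWAT_ASPC. Irx2 stood at 11.9 CPM (11.4 to 12.4) in iWAT_DFAT, 15.9 (15.4 to 16.5) in iWAT_ASPC, 0.156 (0.105 to 0.224) in eWAT_DFAT and 0.294 (0.223 to 0.380) in eWAT_ASPC. Irx1 was therefore the member with the widest gap between the eWAT libraries, at 19 UMIs in eWAT_DFAT and 179 UMIs in eWAT_ASPC. Irx3 stood at 7.95 CPM (7.55 to 8.37) in iWAT_DFAT, 4.55 (4.26 to 4.86) in iWAT_ASPC, 0.727 (0.610 to 0.861) in eWAT_DFAT and 0.835 (0.713 to 0.973) in eWAT_ASPC. Irx5 stood at 19.0 CPM (18.4 to 19.6) in iWAT_DFAT, 10.9 (10.4 to 11.4) in iWAT_ASPC, 0.216 (0.154 to 0.293) in eWAT_DFAT and 0.314 (0.241 to 0.402) in eWAT_ASPC. For Irx3 and Irx5 the intervals of the 2 eWAT libraries overlapped, and in iWAT both were higher in DFAT cells. The remaining Iroquois genes were not part of the pattern: Irx4 had 0 UMIs in all 4 libraries, which allows up to 0.0163 CPM in the smallest library, and Irx6 had 1 UMI, in iWAT_DFAT.

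**Figure D1:**
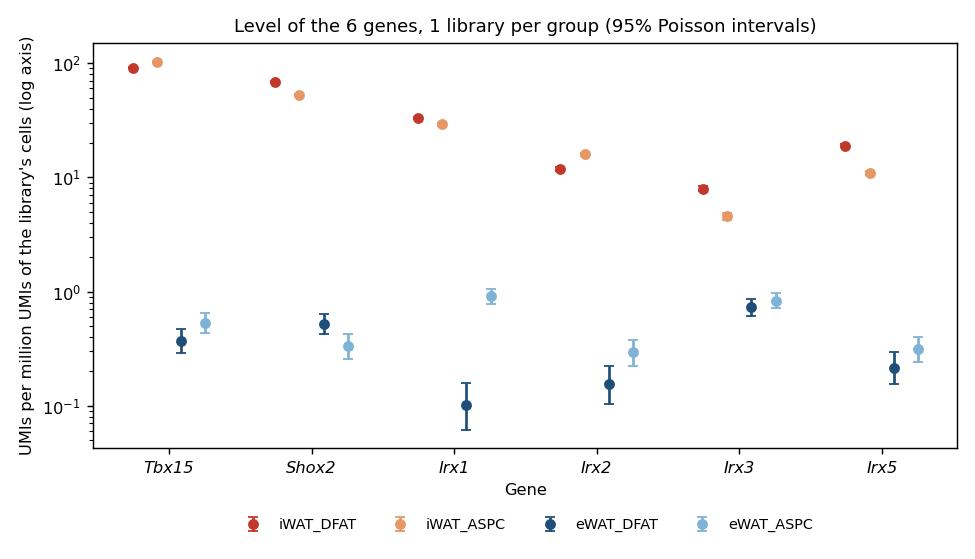
Level of each gene in each library, in UMIs per 1000000 UMIs of the library's cells on a log axis; points are the 4 libraries and bars the exact 95% Poisson intervals. For all 6 genes both iWAT points lie above both eWAT points, from 4.55 against 0.835 CPM for Irx3 to 91.3 against 0.532 CPM for Tbx15, and the eWAT points of Irx1 stand furthest apart, at 0.102 and 0.906 CPM.

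The depot ratios describe the contrast on which the genes were chosen. Between the DFAT libraries the log2 ratio of iWAT over eWAT was 8.33 (95% interval 7.69 to 9.07) for Irx1, 7.94 (7.60 to 8.30) for Tbx15, 7.05 (6.76 to 7.35) for Shox2, 6.46 (6.01 to 6.95) for Irx5, 6.25 (5.73 to 6.83) for Irx2 and 3.45 (3.20 to 3.72) for Irx3. Of the 10384 genes with at least 5 CPM in 1 of the DFAT libraries, 8.29% were at least 2-fold higher in iWAT and 3.95% at least 2-fold lower. All 6 members were among the higher ones, with Irx1, Tbx15 and Shox2 ranked 3, 4 and 5 of 10384, Irx5 and Irx2 ranked 8 and 10, and Irx3, the member with the smallest ratio, ranked 56. The median over the 6 members was 6.75, beside 0.09 over all genes tested.

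Between the ASPC libraries the log2 ratio of iWAT over eWAT was 7.59 (7.32 to 7.89) for Tbx15, 7.30 (6.95 to 7.67) for Shox2, 5.76 (5.39 to 6.16) for Irx2, 5.12 (4.75 to 5.51) for Irx5, 5.00 (4.79 to 5.22) for Irx1 and 2.45 (2.21 to 2.70) for Irx3. Here 2.94% of the 10135 genes with at least 5 CPM were at least 2-fold higher in iWAT and 3.94% at least 2-fold lower. Irx3 lay below 5 CPM in both ASPC libraries, and the other 5 were all at least 2-fold higher, with Tbx15 and Shox2 ranked 6 and 7 of 10135 and Irx2, Irx5 and Irx1 ranked 21, 25 and 26. The median over the 6 members was 5.44 (5.76 over the 5 tested), beside 0.05 over all genes tested. As folds, Irx1 was 323 times higher in iWAT between DFAT cells and 32.0 times between ASPCs, while Tbx15 was 246 and 193 times higher and Shox2 132 and 157 times.

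These ratios were as large when the libraries were cut to cells with at least 6 of 11 stromal markers, where the median over the members was 6.99 between DFAT libraries and 5.61 between ASPC libraries. The cut was not neutral between the DFAT libraries. Of the 11 markers, 9 were themselves at least 2-fold higher in iWAT_DFAT than in eWAT_DFAT, beside 8.29% of all genes tested. Between ASPC libraries 1 was higher in iWAT and 1 lower, beside 2.94% and 3.94%. Wt1, which codes for a zinc finger factor of the mesothelium and of visceral fat progenitors, had a UMI in 35.3% of the eWAT_DFAT and 47.7% of the eWAT_ASPC cells and in 0.301% and 0.0404% of the iWAT_DFAT and iWAT_ASPC cells. In cells without a Wt1 UMI the medians were 6.34 and 5.40. No member's depot ratio changed sign under any of the 10 settings computed for it. The lowest value was 2.34, for Irx3 between ASPCs, so the sign was not at stake for genes chosen on this contrast.

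The comparison of DFAT cells and ASPCs within iWAT was not itself used to choose the genes, but the iWAT levels it divides were. None of the 6 differed by 2-fold or more, which is therefore not independent of the choice. The log2 ratio of iWAT_DFAT over iWAT_ASPC was 0.80 (95% interval 0.68 to 0.93) for Irx3, 0.80 (0.72 to 0.88) for Irx5, 0.39 (0.36 to 0.43) for Shox2 and 0.19 (0.13 to 0.24) for Irx1. It was -0.17 (-0.20 to -0.14) for Tbx15 and -0.42 (-0.50 to -0.34) for Irx2. The Irx3 and Irx5 pair, which shares a cluster on chromosome 8, thus had nearly the same ratio, whereas Irx1 and Irx2, which share a cluster on chromosome 13, had ratios of opposite sign. All 6 stayed within 2-fold, where 9.91% of the 10426 genes with at least 5 CPM in 1 of these libraries were at least 2-fold higher in DFAT cells and 5.18% at least 2-fold lower, so most genes tested were within 2-fold too. Irx3 and Irx5 ranked 1334 and 1337 of 10426 from the highest ratio. The median over the members was 0.29, beside 0.09 over all genes tested. The part of gene length, with which the median ratio over all genes moved in this comparison, was not tested.

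The summed level of the 6 genes was nearly the same in both iWAT libraries, 232 CPM in iWAT_DFAT and 216 CPM in iWAT_ASPC, but its make-up differed. Tbx15 gave 39.3% (38.8% to 39.8%) of the members' UMIs in iWAT_DFAT and 47.6% (47.2% to 48.1%) in iWAT_ASPC. Shox2 gave 29.7% and 24.3%, Irx1 14.2% and 13.5%, Irx2 5.13% and 7.38%, Irx3 3.43% and 2.11%, and Irx5 8.18% and 5.05%. In eWAT the sum was 2.10 CPM in DFAT cells and 3.21 CPM in ASPCs. There the log2 ratio of DFAT cells over ASPCs was -3.15 (-3.91 to -2.46) for Irx1, from 19 and 179 UMIs, while the other 5 lay between -0.91 (Irx2) and 0.65 (Shox2).

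Detection in single cells followed the levels. Cells were thinned to 5000 UMIs each so that all libraries were read at 1 depth, and no cell was shallower than that. Tbx15 then had a UMI in 33.0% of the iWAT_DFAT cells, 35.5% of the iWAT_ASPC cells, 0.248% of the eWAT_DFAT cells and 0.252% of the eWAT_ASPC cells. Shox2 had one in 26.3%, 20.7%, 0.340% and 0.163% in the same order, and Irx1 in 14.5%, 12.3%, 0.0619% and 0.341%. The less abundant Iroquois genes reached fewer cells: Irx5 8.99% and 4.90% of the iWAT_DFAT and iWAT_ASPC cells, Irx2 5.83% and 7.25%, and Irx3 4.08% and 2.22%. In the eWAT libraries the thinned share of every member was at most 0.356%, the value of Irx3 in eWAT_ASPC.

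**Figure D2:**
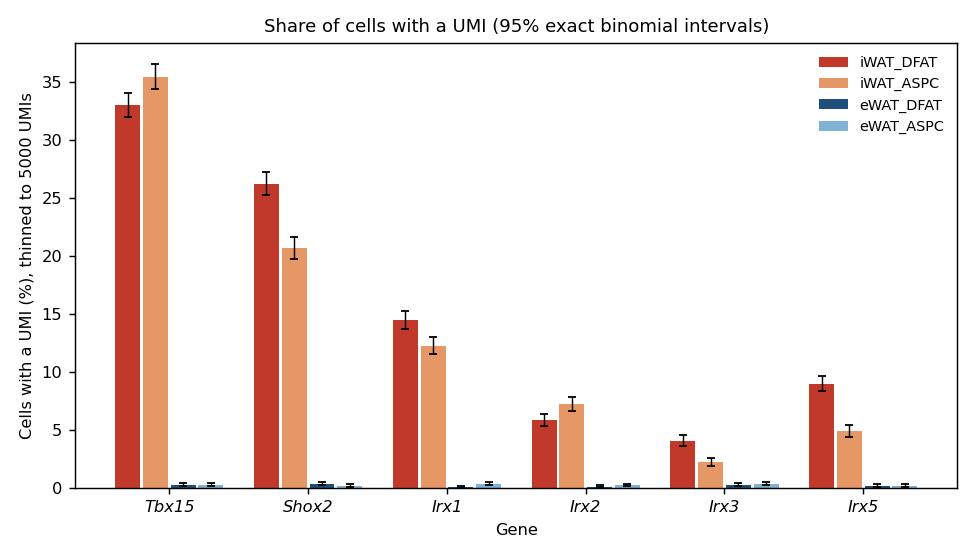
Share of cells with at least 1 UMI of each gene, in percent, after every cell was thinned to 5000 UMIs; bars are the 4 libraries, drawn from 0, with exact 95% binomial intervals. Tbx15 reached 33.0% and 35.5% of the iWAT cells, and no gene passed 0.356% in an eWAT library.

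At full depth the shares rose to 73.5% (iWAT_DFAT) and 77.2% (iWAT_ASPC) for Tbx15, 63.3% and 61.1% for Shox2, 38.7% and 37.5% for Irx1, 21.2% and 29.3% for Irx2, 15.7% and 10.1% for Irx3 and 31.1% and 20.8% for Irx5. The eWAT shares at full depth were 0.897% and 1.39% for Tbx15 in DFAT cells and ASPCs, 1.18% and 0.845% for Shox2, 0.278% and 2.16% for Irx1, 0.449% and 0.815% for Irx2, 1.95% and 2.33% for Irx3, and 0.588% and 0.890% for Irx5. Of iWAT_ASPC cells with 5000 to 10000 UMIs 13.6% held Tbx15, at 34.6 CPM, and of those with 40000 to 75000 UMIs 95.4% did, at 107 CPM. In iWAT_DFAT the same bins gave 32.4% at 67.0 CPM and 87.2% at 81.3 CPM. The shallowest iWAT_ASPC cells thus held Tbx15 less often than the 35.5% of all cells thinned to 5000 UMIs, and the make-up of cells across depth was not tested. Cells with a UMI of a gene held few UMIs of it. The averages were 2.99 (iWAT_DFAT) and 3.58 (iWAT_ASPC) UMIs for Tbx15, 2.62 and 2.31 for Shox2 and 2.05 and 2.08 for Irx1. For Irx2, Irx3 and Irx5 they were at most 1.47. The highest count in a cell was 31 UMIs for Tbx15 and 38 for Shox2, both in iWAT_ASPC.

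Free RNA in droplets gives UMIs in cells that do not express a gene, so the detection was set beside cells with glial markers and with endothelial markers. That glial cells lack most of these genes was assumed and not tested. Glial-marker cells (3 or more of 8 glial markers and no Pdgfra UMI) numbered 128 in iWAT_ASPC, at a median of 10975.5 UMIs, and 13.3% of them (7.93% to 20.4%) held a UMI of any member at full depth. After thinning this was 4.69%, against 59.9% of all iWAT_ASPC cells. In iWAT_DFAT 0 of 16 glial-marker cells, at a median of 11298.5 UMIs, held a member, where the interval reached up to 20.6%. Endothelial-marker cells without Pdgfra held 20.8 CPM of the members in iWAT_DFAT (16 cells) and 28.7 CPM in iWAT_ASPC (51 cells), against 232 and 216 CPM over all cells of these libraries, although endothelial-marker cells of eWAT held more Irx3 and Irx5 than their libraries, as given further on. In droplets with 1 to 100 UMIs the members were present at 0.719 to 1.05 times their level in cells in iWAT_DFAT and 0.784 to 1.33 times in iWAT_ASPC. In the eWAT libraries such droplets held 0 to 9 UMIs of a member, and how much of the low eWAT levels was free RNA was not tested. For Irx1 in eWAT_ASPC, the free RNA stood at 0.704 CPM (0.229 to 1.64), beside 0.906 CPM in cells.

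At full depth 94.7% of iWAT_DFAT cells and 91.7% of iWAT_ASPC cells held at least 1 of the 6 genes, against 5.14% of eWAT_DFAT and 8.02% of eWAT_ASPC cells. Thinned to 5000 UMIs the shares were 64.6% (63.5% to 65.7%), 59.9% (58.8% to 61.0%), 1.16% and 1.48%. At least 3 of the genes met in 45.4% of the iWAT_DFAT and 43.4% of the iWAT_ASPC cells at full depth, and in 0.0155% and 0.0148% of the eWAT_DFAT and eWAT_ASPC cells. All 6 were found together in 69 iWAT_DFAT cells (0.904%) and 63 iWAT_ASPC cells (0.849%), where independent detection of the genes would have given 0.186% and 0.109%. The cells with none of them were also more frequent than independence would give, at 404 cells (5.30% against 2.73%) and 616 cells (8.30% against 2.79%). After thinning, the cells with none were closer to independence, at 35.4% against 34.7% in iWAT_DFAT and 40.1% against 38.7% in iWAT_ASPC. The 95% interval of the iWAT_ASPC share, 39.0% to 41.2%, left out 38.7%. Cells with 4 of the genes numbered 41 against 27.7 and 28 against 14.2, and those with 3 numbered 280 against 286 and 201 against 190. All 6 met in 0 thinned cells, where independence gave 0.0205 and 0.00528 cells, so this count cannot speak to joint detection.

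**Figure D3:**
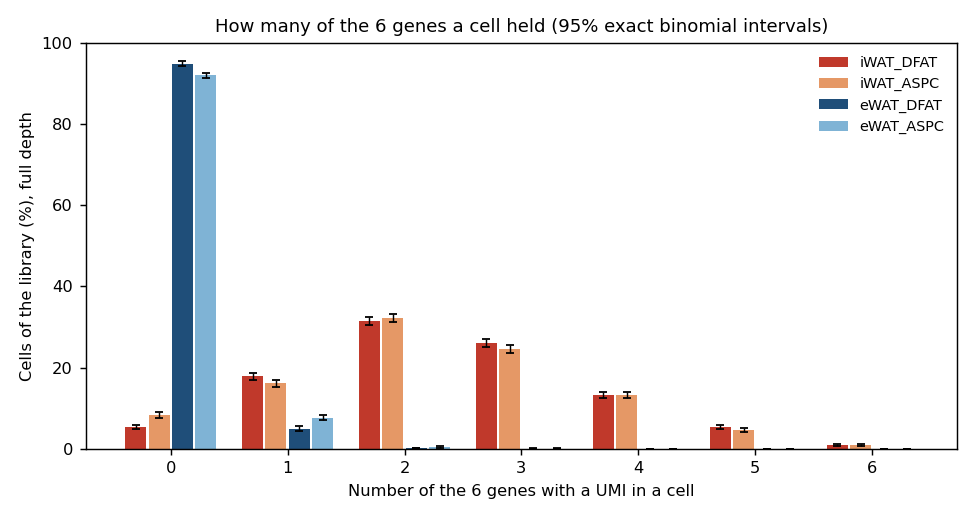
Share of the cells of each library, in percent, by how many of the 6 genes had a UMI at full depth; bars are the 4 libraries, drawn from 0, with exact 95% binomial intervals. In the iWAT libraries 5.30% and 8.30% of cells held none of the genes, and in the eWAT libraries 5.14% and 8.02% held any.

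The iWAT cells without any member were shallower and less often stromal by markers. In iWAT_DFAT the 404 cells had a median of 15068 UMIs, against 22111 over all cells, and 75.7% of them held at least 6 stromal markers, against 98.2%. In iWAT_ASPC the 616 cells had a median of 12278.5 UMIs, against 24930, and 43.0% held at least 6 stromal markers, against 92.9%. Wt1 had a UMI in 0 of the 404 and 1 of the 616 cells. The shares of stromal cells move with depth here, and which of them goes with the missing UMIs was not tested.

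The few eWAT cells with a member held Wt1 at shares near those of the rest of their library. Of the 332 eWAT_DFAT cells with a member 31.6% had a Wt1 UMI, against 35.5% of the others, and of the 541 eWAT_ASPC cells 52.3% had one, against 47.3%. In each library 2 of these cells had a barcode that was also a cell of an iWAT library. Some genes stood higher in particular eWAT cells than in the whole library, and these cells were picked after their values had been seen. Shox2 stood at 8.03 CPM in the 148 pericyte-marker cells of eWAT_DFAT (3 or more of 8 markers; 25 of them with a UMI) and at 12.02 CPM (7.70 to 17.9) in the 98 of these without a Pdgfra UMI, against 0.523 CPM in the whole library. The whole eWAT_DFAT library held 97 UMIs of Shox2. In eWAT_ASPC Shox2 stood at 1.08 CPM in 95 pericyte-marker cells.

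Irx5 stood at 3.57 CPM (1.78 to 6.39) in the 154 endothelial-marker cells of eWAT_ASPC, against 0.314 CPM in the whole library. These cells held 11 of its 62 UMIs in the library, all 11 in the 126 cells without a Pdgfra UMI. Irx3 stood at 4.20 CPM (2.02 to 7.73) in the 148 endothelial-marker cells of eWAT_DFAT, against 0.727 CPM in the whole library. These cells held 10 of its 135 UMIs in the library. Irx1 in eWAT_ASPC, at 0.906 CPM in the whole library, stood near that level in stromal-marker and mesothelial-marker cells. Cells with at least 6 stromal markers held 173 of its 179 UMIs, at 0.933 CPM, and the 782 mesothelial-marker cells held 0.873 CPM.

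Whether the genes met in the same cells was read after thinning, so that every cell was read at 1 depth. For each of the 15 pairs, the number of cells with both genes was divided by the number that independent detection would give. The ratio was above 1 for 9 of 15 pairs in iWAT_DFAT and for 11 of 15 in iWAT_ASPC. The pairs fell into groups by family. All 6 pairs of Iroquois genes were above 1 in both libraries, with medians of 1.43 and 1.81, while Shox2 met the Iroquois genes less often than independence in 3 of 4 pairs in iWAT_DFAT and 4 of 4 in iWAT_ASPC. At full depth, without thinning, this direction turned in iWAT_ASPC: 2 of the 4 pairs of Shox2 were below 1 in iWAT_DFAT (Irx1 at 0.971) and 0 of 4 in iWAT_ASPC (Irx1 at 1.001). These are counts of cells within 1 library each, so no test was made. Pairs of genes outside the 6 are not given, so how common such ratios or intervals are among other pairs was not tested.

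Among the Iroquois pairs, Irx1 and Irx2 met in 104 iWAT_DFAT cells where independence gave 64.4 (ratio 1.61), and in 121 iWAT_ASPC cells where it gave 65.9 (1.83). Irx3 and Irx5 met in 43 cells against 28.0 (1.54) and in 22 against 8.09 (2.72). Ratios above 1 also crossed the clusters: the ratio of Irx1 with Irx3 was 1.49 and 2.03, of Irx1 with Irx5 1.32 and 1.46, of Irx2 with Irx3 1.38 and 1.59, and of Irx2 with Irx5 1.15 and 1.78. The counting intervals of the share of cells with the second gene, in cells with and without the first, did not overlap for 4 of 6 Iroquois pairs in iWAT_DFAT and 5 of 6 in iWAT_ASPC; Irx2 with Irx3 in both libraries and Irx2 with Irx5 in iWAT_DFAT overlapped. Of exact stretches shared between the 4 transcripts, 35 words of 31 bases were common to Irx2 and Irx5, 28 to Irx3 and Irx5, 2 each to Irx1 and Irx2 and to Irx1 and Irx5, and none of 91 bases to any pair. Whether reads were placed on the wrong member was not tested.

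Shox2 and Irx1 met in 239 iWAT_DFAT cells where independence gave 290 (ratio 0.825), and in 154 iWAT_ASPC cells where it gave 188 (0.818). With Irx2 the ratio of Shox2 was 0.779 and 0.871, with Irx5 0.933 and 0.890, and with Irx3 1.08 and 0.937. These intervals did not overlap for 2 of 4 pairs in iWAT_DFAT, with Irx1 and Irx2, and for 1 of 4 in iWAT_ASPC, with Irx1. Tbx15 had a ratio of 1.12 and 1.07 with Shox2, which was found in 29.3% (27.5% to 31.1%) of Tbx15 cells and 24.7% (23.6% to 26.0%) of the others in iWAT_DFAT, and in 22.2% (20.6% to 23.8%) and 19.9% (18.8% to 21.04%) in iWAT_ASPC. With the 4 Iroquois genes the ratios of Tbx15 lay between 0.944 and 1.08, with overlapping intervals. In stromal-marker cells alone the medians were 1.42 and 1.74 for the Iroquois pairs and 0.864 and 0.855 for Shox2 with the Iroquois genes. When the stromal cells were also split by cell cycle markers, 1 of 6 Iroquois pairs fell below 1 in cycling iWAT_ASPC cells (0.838), and in the other iWAT_ASPC cells Shox2 was above 1 with 2 of the 4 Iroquois genes. In iWAT_DFAT the ratio of Shox2 with Irx2 was 0.570 in cycling stromal cells (30 against 52.6) and 0.934 in the others (61 against 65.3).

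**Figure D4:**
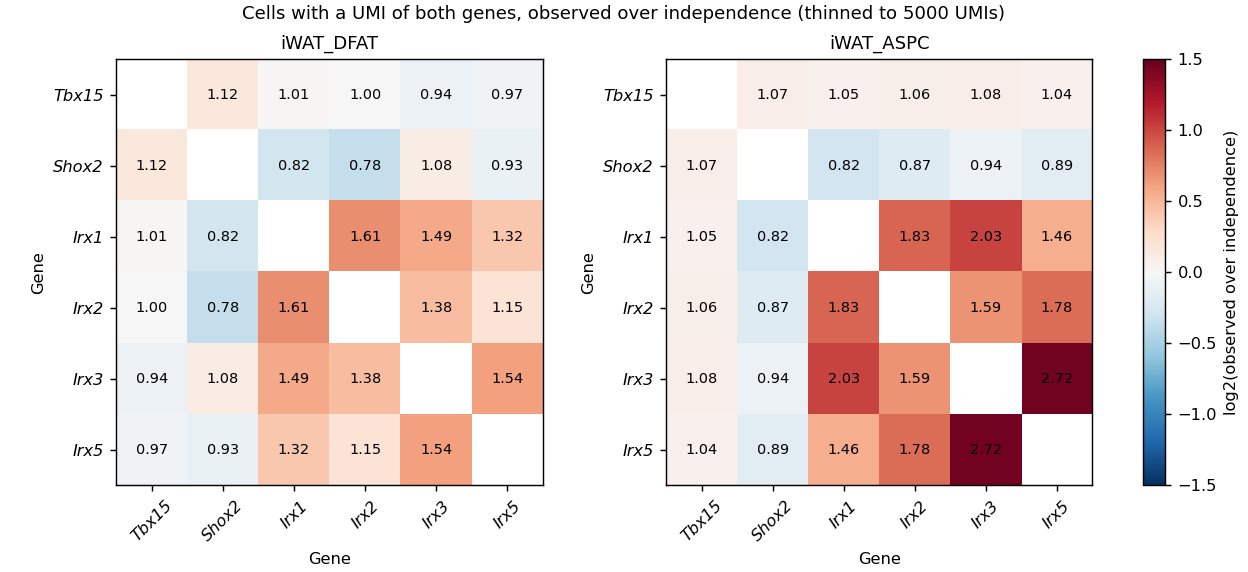
Cells holding a UMI of both genes, as observed number over the number under independent detection, for the 15 pairs in iWAT_DFAT (left) and iWAT_ASPC (right) after thinning to 5000 UMIs; the number in each square is the ratio and the colour its log2. The squares of the 4 Iroquois genes lie between 1.15 and 2.72, and those of Shox2 with Irx1 at 0.825 and 0.818.

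Levels in cells divided by a thinned UMI of another member give the size of these differences from the same UMIs, and are not a separate observation. Cells with an Irx1 UMI held 21.7 CPM of Irx2 in iWAT_DFAT, against 10.2 CPM in the others, and 27.1 against 14.3 CPM in iWAT_ASPC. Irx3 stood at 10.99 against 7.43 CPM and 9.01 against 3.91 CPM, and Irx5 at 24.2 against 18.1 CPM and 16.4 against 10.1 CPM. Shox2 was lower in Irx1 cells, at 60.5 against 70.5 CPM in iWAT_DFAT and 45.3 against 53.6 CPM in iWAT_ASPC. Cells with a Shox2 UMI likewise held less Irx1, at 28.7 against 34.6 CPM and 22.4 against 30.8 CPM. Tbx15 differed little between cells with and without Irx1, at 98.4 against 90.1 CPM and 104 against 103 CPM.

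Cells with Irx1 and no Shox2 UMI after thinning (865 in iWAT_DFAT, 756 in iWAT_ASPC) were then set against cells with Shox2 and no Irx1 (1764 and 1382). The rule for this comparison was chosen after the joint detection had been seen. Both sides were alike in depth, at medians of 22522 and 22159 UMIs in iWAT_DFAT and 25611.5 and 25151 UMIs in iWAT_ASPC, and in the share with at least 5 of 10 cell cycle markers, at 47.2% and 44.0% and at 46.0% and 46.6%. At least 6 stromal markers were held by 99.9% and 99.5% in iWAT_DFAT and 98.3% and 97.3% in iWAT_ASPC. Irx1 and Shox2 differ between the sides by construction and are left out of the counts. Of the other 5655 genes at 20 or more CPM, 54.6% had the same direction in both libraries, 7 differed by at least 1.5-fold in the same direction in both and 3 in opposite directions.

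The 6 genes of each side were ranked by the smaller of their ratios in the 2 libraries, and Crabp1, Nqo1, Ebf2, Shroom3 and Eps8 did not reach 1.5-fold in both. On the Irx1 side, the first was Irx2, at log2 ratios of 1.55 in iWAT_DFAT and 1.20 in iWAT_ASPC, which restates its joint detection with Irx1 and is 1 of the 7 genes counted. It was followed by Galnt17 (0.75 and 0.76), a glycosyltransferase gene, Tnc (0.67 and 0.73), which codes for the matrix protein tenascin C, Stambpl1 (0.69 and 0.65), a deubiquitinase gene, Esr1 (0.60 and 1.22), the gene of estrogen receptor alpha, and Crabp1 (0.51 and 0.98), which codes for a retinoic acid binding protein. Tnc stood at 1183 against 741 CPM in iWAT_DFAT and 259 against 156 CPM in iWAT_ASPC, and Esr1 at 38.9 against 25.8 CPM and 50.8 against 21.8 CPM. On the Shox2 side the genes were Trps1 (-0.72 in both), a GATA-type repressor of skeletal development, Mustn1 (-0.74 and -0.67), a small nuclear protein of muscle and skeleton, Nqo1 (-0.58 and -0.53), a quinone reductase, Ebf2 (-0.50 and -0.51), a factor of brown and beige adipocyte precursors, Shroom3 (-0.44 and -0.63) and Eps8 (-0.49 and -0.44), both regulators of the actin skeleton. Ebf2 stood at 76.9 against 109 CPM and 57.4 against 82.0 CPM. Tbx15 (-0.08 and -0.12) and Pdgfra (0.05 and -0.05), the gene of a receptor that marks adipose progenitors, lay within 0.12 of 0. Dpp4, a marker of early progenitors, stood at 0.27 and 0.94, Pi16, a further such marker, at -0.41 and -0.04 (12 and 22 UMIs in iWAT_ASPC), and Gata6 at 0.36 and -0.58. The cell cycle genes Top2a and Mki67 stood at 0.26 and -0.05, and at 0.13 and -0.10, and Hoxc10 at -0.40 and -0.23.

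**Figure D5:**
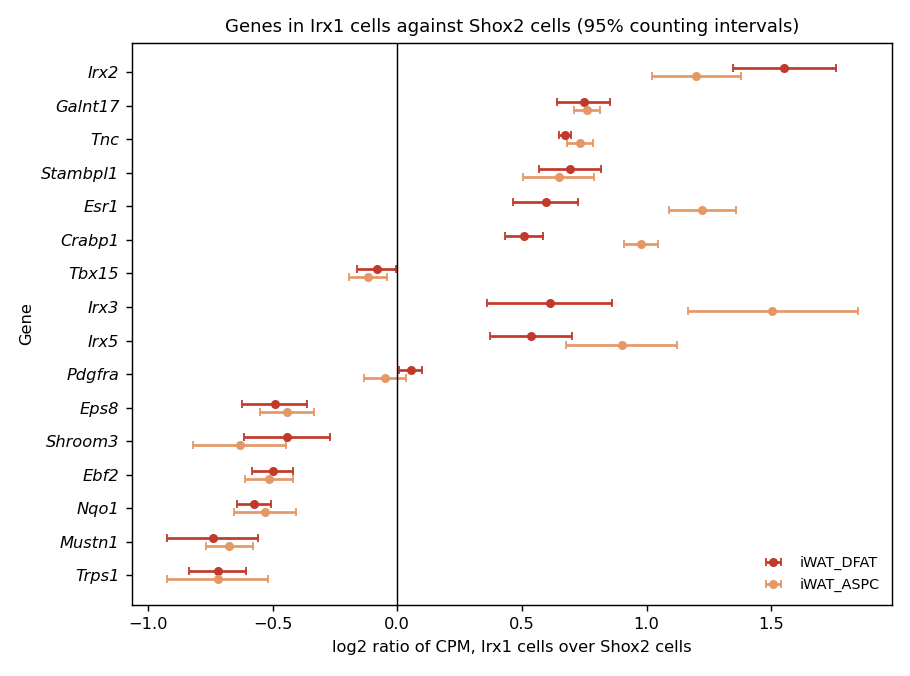
Log2 ratio of CPM between cells with Irx1 and no Shox2 UMI and cells with Shox2 and no Irx1 UMI, for the named genes; points are the 2 iWAT libraries and bars 95% counting intervals. Irx2 is highest in iWAT_DFAT at 1.55, Trps1 lies at -0.72 in both libraries, and Tbx15 and Pdgfra lie within 0.12 of 0.

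The summed level differed little by cell cycle state in iWAT_DFAT and more in iWAT_ASPC. Cells with at least 5 of 10 cell cycle markers held 233 CPM of the 6 genes in iWAT_DFAT, against 232 CPM in the others, and 226 against 205 CPM in iWAT_ASPC, a log2 ratio of 0.14 (0.12 to 0.17). Irx5 was higher in cycling cells of both libraries, at 21.1 against 16.9 CPM and 12.4 against 9.41 CPM. Tbx15 was lower in cycling cells in iWAT_DFAT (85.3 against 97.4 CPM) and higher in iWAT_ASPC (111 against 94.4 CPM). Across marker classes in iWAT, pericyte-marker cells held 223 CPM of the members in iWAT_DFAT (62 cells) and 200 CPM in iWAT_ASPC (144 cells), and the 46 adipocyte-marker cells of iWAT_DFAT held 112 CPM, while the 233 cells just under that limit, with exactly 2 adipocyte markers, held 165 CPM.

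Genes next to the members differed between the depots to unequal degrees. Whether strand was used in counting is not given in the sources used here, so UMIs of overlapping and antisense genes may be shared with the member. Rsrc1, a splicing-related gene on the opposite strand that starts 381 bases from Shox2, had log2 ratios of iWAT over eWAT of 1.10 between DFAT cells and 1.07 between ASPCs, from 176, 82.2, 139 and 66.0 CPM in iWAT_DFAT, eWAT_DFAT, iWAT_ASPC and eWAT_ASPC. The Shox2 ratios were 7.05 and 7.30, so the difference in Shox2 was much larger than that of its neighbour. Crnde, a long noncoding RNA that starts 1505 bases from Irx5, had ratios of 1.84 and 1.72 (3.81, 1.06, 3.01 and 0.916 CPM), against 6.46 and 5.12 for Irx5.

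Neighbours of Irx1, Irx2 and Irx3 had larger ratios than Rsrc1 and Crnde. Gm40999 starts 7171 bases downstream of the start of Irx1 on the same strand, where Irx1 itself spans 5803 bases. It had ratios of 6.96 and 6.20, from 3.34, 0.0269, 2.24 and 0.0304 CPM. Whether its UMIs came from RNA that ran on from Irx1 was not tested. Gm20554, which starts 256 bases upstream of Irx2 on the other strand, had ratios of 5.29 and 4.24 (1.26, 0.0323, 1.72 and 0.0911 CPM). Irx3os, which starts within Irx3 on the other strand, 1652 bases downstream of its start, had 4.22 and 2.77 (0.604, 0.0323, 0.276 and 0.0405 CPM). All 3 are noncoding or uncharacterised transcripts at low levels. Wars2, a mitochondrial tRNA ligase gene that starts 99313 bases upstream of Tbx15, had 0.80 and 0.46, against 7.94 and 7.59 for Tbx15. Gm43024 and Gm42717, intronic transcripts upstream of Tbx15, had 0.90 and 0.38, and 1.16 and 1.55. Gm43120, an antisense transcript within Tbx15, had 23 UMIs against 1 between DFAT cells (log2 ratio 4.54, 1.92 to 9.90) and 40 against 0 between ASPCs. The remaining counted neighbours had few UMIs in iWAT_DFAT, eWAT_DFAT, iWAT_ASPC and eWAT_ASPC: Gm36325 had 13, 2, 10 and 2, Gm36380 had 2, 3, 0 and 1, and Gm21817, near Irx5, had 0, 0, 3 and 0. Gm28511 had 0 in all 4 libraries.

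Across the 4 libraries, the gene whose pattern lay nearest to the mean pattern of the members was Hoxc10, a posterior homeobox gene, at 90.4 CPM in iWAT_DFAT, 1.86 in eWAT_DFAT, 101 in iWAT_ASPC and 3.44 in eWAT_ASPC. The measure was the distance between centred log2 levels over the 4 libraries, computed for 6969 genes at 20 or more CPM, and was 0.606 for Hoxc10. Crabp1 (0.962), Emb (1.79), Rpl39l (1.90), Galnt13 (2.06), Lrrc17 (2.15), Gdf10 (2.39), Ly6c1 (2.63), Tspan11 (2.68) and Dkk2 (2.80) followed. The members' own distances to their mean were 0.524 (Irx5), 0.529 (Irx2), 1.31 (Irx1), 1.42 (Shox2), 1.83 (Tbx15) and 2.91 (Irx3). Irx3 thus lay further from the mean than any of the genes just named. Hoxc10 was also the nearest gene to Irx1 (1.41), Irx2 (0.363) and Irx5 (0.764), whereas Rpl39l was nearest to Tbx15 (0.831) and Shox2 (0.758), and Mfap2, a microfibril gene, to Irx3 (0.422). With 4 points, 1 per library, these distances are a description only.

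Most genes of the wider families were below 5 CPM or within 2-fold between depots. Of 17 T-box genes, 4 reached 5 CPM between the DFAT libraries and 4 between the ASPC libraries. Of these, 1 gene, Tbx15, was at least 2-fold higher in iWAT in each and 0 were lower. Over all genes tested, 8.29% and 2.94% were higher and 3.95% and 3.94% lower. The log2 ratios of the others were 0.75 and 0.05 for Tbx18, -0.10 and -0.97 for Tbx3, and 0.40 and -0.03 for Mga. Within iWAT, Tbx3 and Tbx18 were higher in DFAT cells than in ASPCs, with log2 ratios of 3.09 and 1.30, unlike Tbx15 at -0.17.

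Of 30 limb and lateral mesoderm factors, a list that includes Shox2, 14 reached 5 CPM in each depot comparison. This list and that of the T-box genes were chosen with earlier results of these data known, so their counts are a description. Between DFAT cells 7 were at least 2-fold higher in iWAT and 1 lower, with a median of 0.98. Of all genes tested there, 8.29% were higher and 3.95% lower, with a median of 0.09. Beside Shox2 the higher ones were Pitx1 (9.52, 95% interval 7.67 to 12.57, from 1454 and 2 UMIs), which specifies the hindlimb, Osr2 (3.12), En1 (1.93), Twist2 (1.57), Prrx1 (1.39) and Prrx2 (1.25), and the lower one was Meis1 (-1.46). Between ASPCs 5 were higher and 1 lower, with a median of 0.71, beside 2.94% and 3.94% of all genes tested and a median of 0.05. Shox2, Meox2 (3.87), En1 (2.54), Foxf2 (1.08) and Twist2 (1.05) were higher and Meis1 (-1.21) lower.

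A list of 6 visceral factors ran the other way. It too was chosen with earlier results of these data known, so its counts are a description and not a separate observation. Between DFAT cells 3 reached 5 CPM and 2 of them were at least 2-fold lower in iWAT, beside 3.95% of all genes tested. Between ASPCs 5 reached it and all 5 were lower, beside 3.94% of all genes tested. Wt1 stood at 0.131 CPM in iWAT_DFAT, 20.1 in eWAT_DFAT, 0.0150 in iWAT_ASPC and 34.8 in eWAT_ASPC, and Tcf21, a factor of visceral mesenchyme, at 0.0109, 4.16, 0.0251 and 19.0 CPM. Bnc1, which codes for a zinc finger factor of epithelia, stood at 0.00544, 0.501, 0.0903 and 5.57 CPM. Gata4 was low and ranged from 0.109 to 1.21 CPM over the libraries. Gata6 was the exception, present in every library at 25.7, 37.6, 22.6 and 50.8 CPM, with log2 ratios of -0.55 between DFAT cells and -1.17 between ASPCs.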

How the data were processed

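UMI counts of 4 libraries of cultured cells, 1 per group, were analysed. The deposited values are whole-number UMI counts per gene and barcode, empty droplets included, made by the authors with Cell Ranger on mm10, per the study's methods with introns included. Per the labels the version was 7.0.0, whereas the file headers give 7.1.0 and, for the iWAT_ASPC library, 4, so the version and intron setting of that library are in doubt, and ratios with it may mix the setting with the group. CellBender, DoubletFinder and Harmony, which the study's methods name, were not applied here. No doublet was removed, and leaving out cells with over 2 times the median UMIs of their library was tried instead. Of the sample columns, 0 were left unused.

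UMIs were summed over the cells of a library and scaled to 1000000 (CPM), with exact Poisson intervals at 95%. Shares carry exact Clopper-Pearson intervals and ratios exact conditional binomial intervals. UMIs of 1 cell are not independent, so all intervals cover counting error only. A gene was called different at 2-fold or more among genes with 5 CPM or more in the higher library. Joint detection and shares used cells thinned to 5000 UMIs with a fixed seed. Free RNA was read in droplets with 1 to 100 UMIs. Stromal cells held 6 or more of 11 markers, other classes 3 or more of 8, and cycling cells 5 or more of 10. Promoters came from RefSeq, with 3 of the 6 members in the table, and gene positions from GENCODE M21, in which 32158 of 32285 identifiers were found. The scripts were tested on simulated data. Tables were handled with pandas 2.3.3 under Python 3.11.15, statistics with scipy 1.17.1 and numpy 2.4.6, and figures with matplotlib 3.10.9.

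The members and lists were chosen with earlier results of these data known. Named genes were the 6 members, the other Iroquois genes, genes starting within 100 kb of a member, list genes at 5 or more CPM, and the 10 genes nearest to the mean pattern on log2(CPM + 0.1). The genes set between Irx1 and Shox2 cells, the alternatives for pairs and the cells without a Wt1 UMI were chosen after the data had been seen. The other alternatives changed the filter on cells, the scaling, the thinning, the free RNA, the minimum level and the fold. The values of 1 gene of the visceral list are not reported here.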

Additional observations from a re-analysis of the deposited data

Results flagged for a closer look

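The differences listed here were marked because the effect had opposite signs in 2 groups, and in each case the difference was not tested, since each group is 1 library. Tbx15 was lower in cycling than in other cells of the iWAT_DFAT library, with a log2 ratio of -0.19, and higher in cycling cells of the iWAT_ASPC library, with 0.23. Irx1 was slightly higher in DFAT cells than in ASPCs of iWAT, with a log2 ratio of 0.19 from 6069 and 5787 UMIs, and lower in DFAT cells than in ASPCs of eWAT, with -3.15 from 19 and 179 UMIs. Free RNA held Irx1 at 0.704 CPM (0.229 to 1.64) in eWAT_ASPC, beside 0.906 CPM in cells, and its part in the difference was not tested.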

How the results depend on the processing

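No paired analysis was possible because each group is 1 library, and for the same reason no replicate could be left out. Of 94 alternative values for 17 results, 75 stayed within their counting interval or, for counts of genes, within 1.5 times, and 19 moved. No sign was reversed, though shares and counts have none and the depot ratios were chosen as high. The median log2 depot ratio of the members ranged from 6.34 to 6.99 between DFAT cells, with 6.34 in cells without a Wt1 UMI, and from 5.29 to 5.61 between ASPCs. The median between iWAT_DFAT and iWAT_ASPC was 0.21 with size factors in place of total UMIs, a scaling that shifted all genes by -0.08, and at most 0.32. The share of cells with a member was 94.7% without thinning and 32.2% at 2 or more UMIs in iWAT_DFAT, and in iWAT_ASPC 91.7%, 27.7% and, in stromal cells, 62.8%. Without thinning the median log2 odds ratio over the pairs rose from 0.16 to 0.60 in iWAT_DFAT and from 0.17 to 0.98 in iWAT_ASPC; the cause was not tested. Over the alternatives for the pairs, the ratio of Irx1 with Shox2 lay between 0.737 and 0.908 in iWAT_DFAT and 0.769 and 0.860 in iWAT_ASPC, and that of Irx1 with Irx2 between 1.54 and 1.75 and 1.64 and 1.86. The interval for Irx1 with Shox2 passed 1 in stromal iWAT_DFAT cells with few cycling markers (0.876, 0.737 to 1.03), and without thinning, which these ranges leave out, the ratio was 0.971 and 1.001 and all 4 pairs of Shox2 with an Iroquois gene were above 1 in iWAT_ASPC.

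At 4-fold the genes higher and lower in iWAT numbered 228 and 150 between DFAT cells, against 861 and 410 at 2-fold, and 103 and 131 between ASPCs, against 298 and 399; between iWAT_DFAT and iWAT_ASPC they numbered 398 and 228, against 1033 and 540. With a minimum of 1 CPM the lower genes numbered 808 between DFAT cells and 965 between iWAT_DFAT and iWAT_ASPC, and 666 were higher and 714 lower between ASPCs. The eWAT values are limited by few UMIs, since a member rests on 19 to 179 UMIs per library there.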
